A study of Mus musculus with 18 samples.

Results

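The genes described here encode the subunits of the 5 complexes of oxidative phosphorylation. Members were the protein-coding rows with a subunit symbol (Nduf with A, B, C, S or V, Sdha to Sdhd, Uqcr, Cox4 to Cox8, Atp5 and the mitochondrial mt-Nd, mt-Co, mt-Cytb and mt-Atp genes), without the assembly factors Ndufaf and Sdhaf. The rule found 95 members, the same number in a table of 22137 genes and in another of 24778 genes, and 82 of them were nuclear and 13 mitochondrial. Complex I had 38 nuclear and 7 mitochondrial members, complex II 4 nuclear ones, complex III 8 and 1, complex IV 15 and 3, and complex V 17 and 2. Another 11 rows matched the symbols but were not annotated as protein-coding and were left out. Complexes were assigned by symbol, so Ndufa4 and Ndufa4l2 are counted with complex I, although the Ndufa4 protein is now regarded as a subunit of complex IV. The rule does not take in Ndufab1 and Cyc1, which are given with the electron carriers.

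RNA came from tumours that MC38 cells, a colon carcinoma line of the mouse, formed in the liver after injection into the spleen. The 18 libraries fell into 4 groups. The LFD group (n = 5) held tumours of wild-type mice on a low-fat diet, and the HFD group (n = 5) tumours of wild-type mice on a high-fat diet. The shCon (n = 4) and shYap (n = 4) groups held tumours of wild-type mice on a high-fat diet, with the tumours labelled for a control hairpin or for a hairpin against Yap, a transcriptional co-activator of the Hippo pathway. Strain, sex, age, the vector of the hairpins and whether the line was cloned are not given in the sources used here. LFD and HFD stand in the first table and shCon and shYap in the other, and each table was normalised and tested alone. The labels do not say whether each library was a different animal, so the p-values weigh effects against the spread between these samples only, which may be technical.

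Libraries of the first table held 17766185 to 18474195 estimated counts, and those of the other 17207187 to 21309901. Levels are in CPM, counts scaled to library size and TMM factors, unless another scale is named. Yap1 was at 78.1, 82.4, 73.8 and 77.4 CPM in shCon while the libraries labelled shYap had 71.6, 80.0, 81.4 and 70.5 CPM (log2 fold change -0.04 ± 0.11 SE, adjusted p = 0.937, edgeR), so its RNA does not show the knockdown and the label is used throughout. Markers of hepatocytes, the cells around a liver metastasis, summed to 14584 to 135067 CPM in LFD, 1270 to 8460 in HFD, 14139 to 56178 in shCon and 18756 to 92740 in shYap. Of 21 hepatocyte markers, 20 were lower in HFD. Of the 10 epithelial markers of the colon, Cdx1 and Cdx2 had no row in either table, and the others summed to 55.3 to 543.6 CPM in LFD and 188.2 to 359.8 CPM in HFD. Markers of muscle reached at most 1.45 CPM in the first table and 8.76 in the second, and those of fat 1.06 and 3.20 CPM. Xist, made from the silenced X of female cells, was at 110.5 ± 23.7 CPM in LFD (SD, n = 5) and 0.169 ± 0.102 CPM in HFD (SD, n = 5), so the sex of the RNA and the diet cannot be told apart.

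Oxidative phosphorylation makes most of the ATP of a respiring cell. Complex I oxidises NADH and complex II oxidises succinate, and both pass electrons to ubiquinone. Complex III hands them to cytochrome c and complex IV to oxygen, while complexes I, III and IV pump protons and complex V, the ATP synthase, uses the returning protons. Mitochondrial DNA, transcribed by a polymerase of the organelle, encodes core subunits of complexes I, III and IV and membrane subunits of complex V. All other subunits are made from nuclear genes, and complex II is wholly nuclear. Hepatocytes are rich in mitochondria.

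The 13 mitochondrial members are packed on a small circular genome and some overlap, which bears on how reads can be assigned to them. The stretches below are given in GRCm38, 5′ to 3′ on the plus strand, from GENCODE M21 transcripts, with the bases shared by a neighbouring gene in capitals. Both mt-Atp8 and mt-Atp6 are read from the capitals of the first stretch, 43 bases at chrM:7927-7969, and mt-Nd4l and mt-Nd4 from the 7 capitals of the second. The 14 capitals at the end of mt-Nd5 are the end of mt-Nd6 on the opposite strand.
mt-Atp8, whole gene, chrM:7766-7969: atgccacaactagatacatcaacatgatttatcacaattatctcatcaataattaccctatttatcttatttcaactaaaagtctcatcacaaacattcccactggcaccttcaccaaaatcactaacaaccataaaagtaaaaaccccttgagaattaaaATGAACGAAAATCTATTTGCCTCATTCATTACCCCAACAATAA
mt-Nd4l, last 60 bases, chrM:10114-10173: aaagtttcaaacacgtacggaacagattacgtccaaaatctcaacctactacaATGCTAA
mt-Nd5, last 60 bases, chrM:13506-13565: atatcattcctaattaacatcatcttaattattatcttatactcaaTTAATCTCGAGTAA

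The overlap takes 21.1% of the exon bases of mt-Atp8 and 6.31% of those of mt-Atp6, so the count of mt-Atp8 in particular depends on how shared reads were divided. The sources used here do not give the strand of the libraries, and mt-Nd6 is the member on the other strand of the mitochondrial genome. In its own direction mt-Nd6 is 43.7% T and 5.97% C, whereas mt-Nd2 is 36.9% A and 27.8% C.

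Promoters of nuclear members are known for sites of the nuclear respiratory factor NRF1, ETS factors such as NRF2 (GABP), YY1 and oestrogen-related receptors. Of 82 nuclear members, 66 had an entry in the RefSeq promoter table (GRCm38.p6, 250 bases before to 50 after a start), with 71 windows. Members without an entry included Atp5a1, Atp5mpl, Cox4i1, Cox4i2, Cox6a2, Cox6c, Ndufa2, Ndufa4l2, Ndufb1-ps, Ndufb9, Ndufs1, Sdhc, Uqcrb, Uqcrc2 and Uqcrq. The NRF1 letters, GCGCA and GCGC with any 1 base between, stood on either strand in 25.4% of member windows, against 4.60% of all 32851 windows of the same length. The ETS letters CCGGAAG stood in 23.9% against 8.86%, the YY1 letters AAGATGGC in 14.1% against 2.75%, and the oestrogen-related receptor letters TCAAGGTCA in 2.82% against 0.423%. The ETS letters end and the YY1 letters begin with AAG, so matches of both can share these bases. A match describes the letters and is not a measured binding site. One NRF1 match from each of 4 complexes is shown with the motif in capitals and the strand of the gene, to let the common core be seen.
Sdhd, complex II, chr9:50603894-50603953, minus strand: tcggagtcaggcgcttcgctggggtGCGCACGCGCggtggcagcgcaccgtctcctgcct
Ndufa5, complex I, chr6:24527691-24527750, minus strand: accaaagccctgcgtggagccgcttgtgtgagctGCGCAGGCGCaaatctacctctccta
Cox6a1, complex IV, chr5:115349086-115349145, minus strand: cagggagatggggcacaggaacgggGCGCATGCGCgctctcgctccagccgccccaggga
Atp5g2, complex V, chr15:102671055-102671114, minus strand: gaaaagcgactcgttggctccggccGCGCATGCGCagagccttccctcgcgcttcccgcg

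These matches start 79, 26, 162 and 42 bases before the start used in the RefSeq promoter table, in that order. In GENCODE M21, Ndufa5 and Atp5g2 begin further upstream, at chr6:24528013 and chr15:102672352, so their matches lie inside the annotated genes. The 4 genes did not move alike between diets: Ndufa5 and Sdhd fell in HFD, while Cox6a1 (log2 fold change -0.18 ± 0.13 SE) and Atp5g2 (0.23 ± 0.14) did not pass the test. NRF1 letters stood in 7 of 31 members with an entry that fell in HFD and in 10 of 35 others. For ETS the counts were 6 of 31 and 11 of 35, for YY1 7 of 31 and 3 of 35, and for oestrogen-related receptors 1 of 31 and 1 of 35.

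The first comparison asks how the respiratory chain transcripts of metastases in mice on a high-fat diet differ from those in mice on a low-fat diet. Of 92 members tested, 52 were lower in HFD and 3 were higher at an adjusted p under 0.05 in edgeR's quasi-likelihood test, which called 21.6% of all 16340 genes lower, 19.4% higher and so 41.1% in all. DESeq2, which called 36% of the genes it tested, had 54 members lower. All 13 mitochondrial members fell, with a median log2 fold change of -0.79, and 39 of 79 nuclear members tested fell, with a median of -0.40. The median of all genes tested was -0.00. Of 22 alternative analyses, 15 lost the call of mt-Co3, 11 that of mt-Nd4l, 10 mt-Nd1, 9 mt-Nd5 and 8 mt-Co2. For each of the other mitochondrial members the call was lost in 1 to 4. The 3 members that rose were Ndufa4l2, Cox7a2l and Cox7a1, each a paralogue or isoform of another subunit. Cox7a1 had few counts, passed the filter on low counts through the HFD libraries, and was not tested under a filter of 1 CPM. Cox4i2, Cox6a2 and Cox6b2 were below the filter on low counts and were not tested. In bulk tissue, fewer cells of a type and less RNA per cell cannot be told apart.

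The LFD and HFD libraries also differed in their hepatocyte RNA. The mean log2 CPM of the 21 hepatocyte markers was 8.35 to 11.8 in LFD and 4.43 to 7.10 in HFD, and its correlation with the diet label over the 10 libraries was -0.87. With that mean as a covariate in edgeR, 0 members were lower, Ndufv1 was higher, and the medians were 0.24 for nuclear and 0.10 for mitochondrial members. The share of all genes called in that fit is not given here. The covariate and the diet share most of their variation, so hepatocyte content and diet cannot be told apart here. Lower in HFD as well were the summed levels of markers of neutrophils (39.2 to 79.5 CPM in LFD, 1.21 to 8.38 in HFD), Kupffer cells (83.4 to 232.8 and 16.4 to 80.2) and B cells (66.5 to 190.8 and 17.02 to 36.7). The summed levels overlapped for T cell markers (34.8 to 116.2 CPM in LFD, 12.1 to 43.7 in HFD) and red blood cell markers (175.4 to 7667 and 66.9 to 321.0 CPM), and fibroblast markers were higher in HFD (2811 to 5374 and 6196 to 8297 CPM). By gene, all 8 T cell markers and the 5 tested markers each of red blood cells, B cells and neutrophils were called lower. Of 6 Kupffer cell markers 3 were called lower, and of 6 fibroblast markers 3 higher. The part of these cells in the results was not tested.

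Among the mitochondrial members, mt-Nd2, a membrane subunit of complex I, changed most. In LFD it was at 9651, 4090, 5815, 5379 and 12304 CPM in replicates 1 to 5, and in HFD at 2872, 3231, 2947, 3227 and 3402 CPM. Every HFD library lay below every LFD library, and LFD replicates 1 and 5 stood well above the other LFD libraries. The log2 fold change was -1.25 ± 0.27 SE (edgeR adjusted p = 0.00543), which is 2.38-fold lower. The most abundant member, mt-Co1, the catalytic subunit of complex IV, was at 36146, 19565, 24271, 20896 and 50076 CPM in LFD and at 15399, 17687, 16359, 17606 and 16227 CPM in HFD. Its groups did not overlap either, and its change was -0.86 ± 0.25 (edgeR adjusted p = 0.0199). Without LFD replicates 1 and 5 the changes were smaller, -0.68 ± 0.11 for mt-Nd2 and -0.35 ± 0.08 for mt-Co1, and both passed.

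The other complex I members of the organelle fell by 0.54 (mt-Nd1) to 0.84 (mt-Nd4) on the log2 scale. For mt-Nd1, the smallest fall, LFD libraries ran from 6241 to 12230 CPM and HFD libraries from 5213 to 6051 CPM. mt-Cytb, the cytochrome b of complex III, was at 7792 to 17256 CPM in LFD and 6110 to 6947 CPM in HFD (-0.82 ± 0.21). Of the complex V members, mt-Atp6 forms part of the proton channel and fell by 0.84 ± 0.21, and the small mt-Atp8 fell by 0.82 ± 0.23. In 9 of the 13 genes the LFD and HFD libraries did not overlap, against 14.8% of all genes tested that were lower without overlap. The overlap in the others (mt-Nd3, mt-Nd4l, mt-Co3 and mt-Atp8) came from LFD replicate 2 alone, which lay below the highest HFD library in each.

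**Figure D1:**
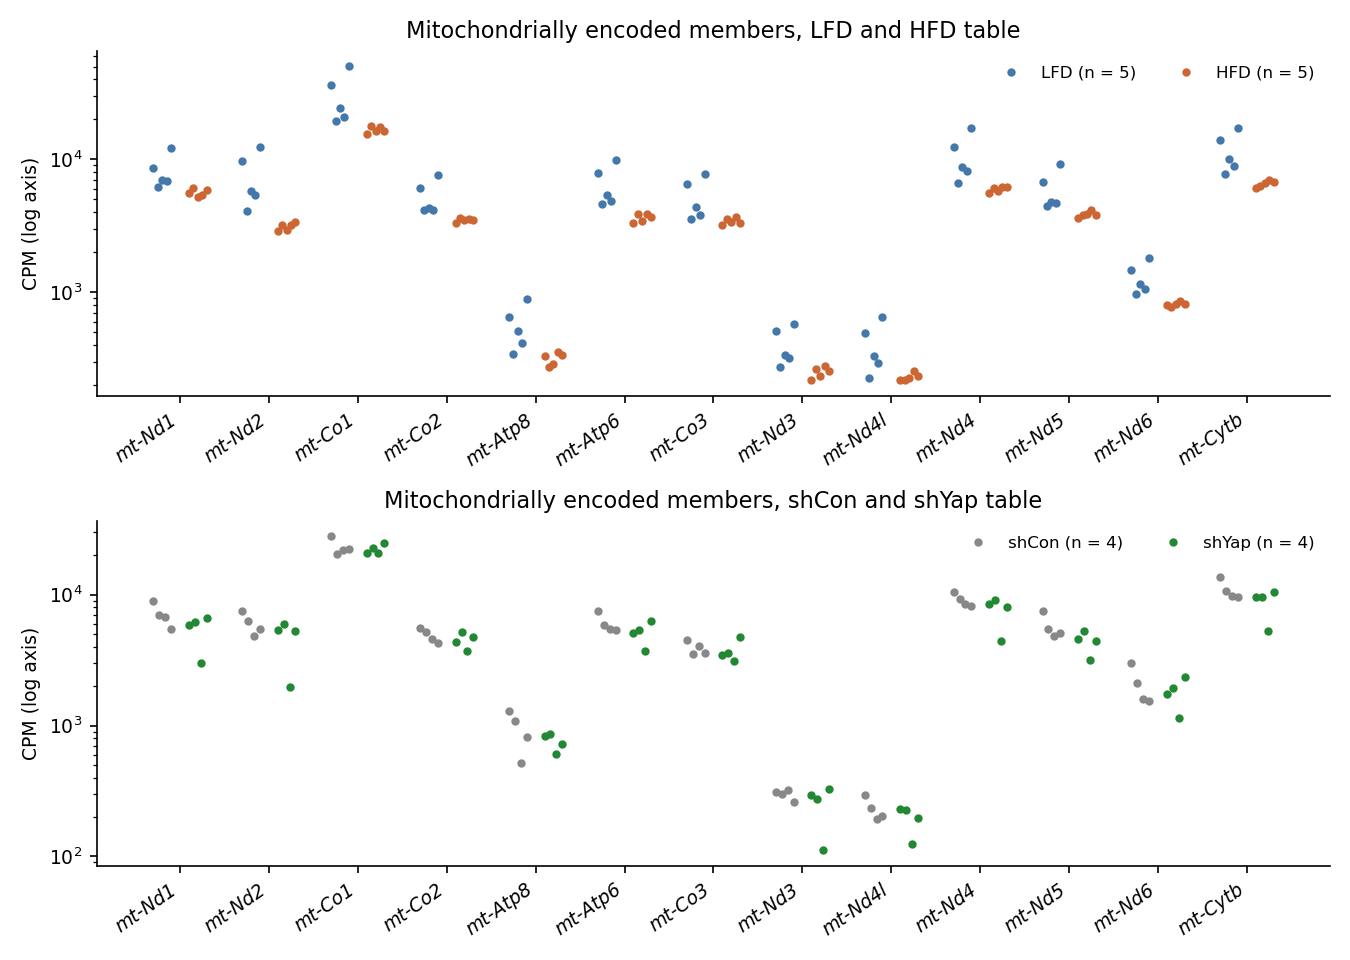
CPM of the 13 mitochondrial members in each library on a log axis, in genome order, with LFD and HFD above and shCon and shYap below. Each point is 1 library. LFD replicates 1 and 5 are the 2 highest points of each gene, and the library labelled shYap replicate 3 is the lowest point of its group in 12 of the 13 genes.

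As shares of all counts, without scaling, the mitochondrial members made up 9.11%, 6.64%, 7.78%, 7.29% and 10.1% of the LFD libraries and 5.53%, 6.06%, 5.78%, 6.20% and 6.02% of the HFD libraries. The HFD libraries were all lower and lay closer together. The nuclear members made up 0.653% to 0.746% in LFD and 0.635% to 0.700% in HFD, and these ranges overlapped. The ratio of mitochondrial to nuclear member counts, which does not depend on scaling, was 10.2 to 14.3 in LFD (11.8 ± 1.61 SD, n = 5) and 8.15 to 9.77 in HFD (8.93 ± 0.621 SD, n = 5). The groups did not overlap in this ratio, and the HFD mean was 0.759 times the LFD mean.

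**Figure D2:**
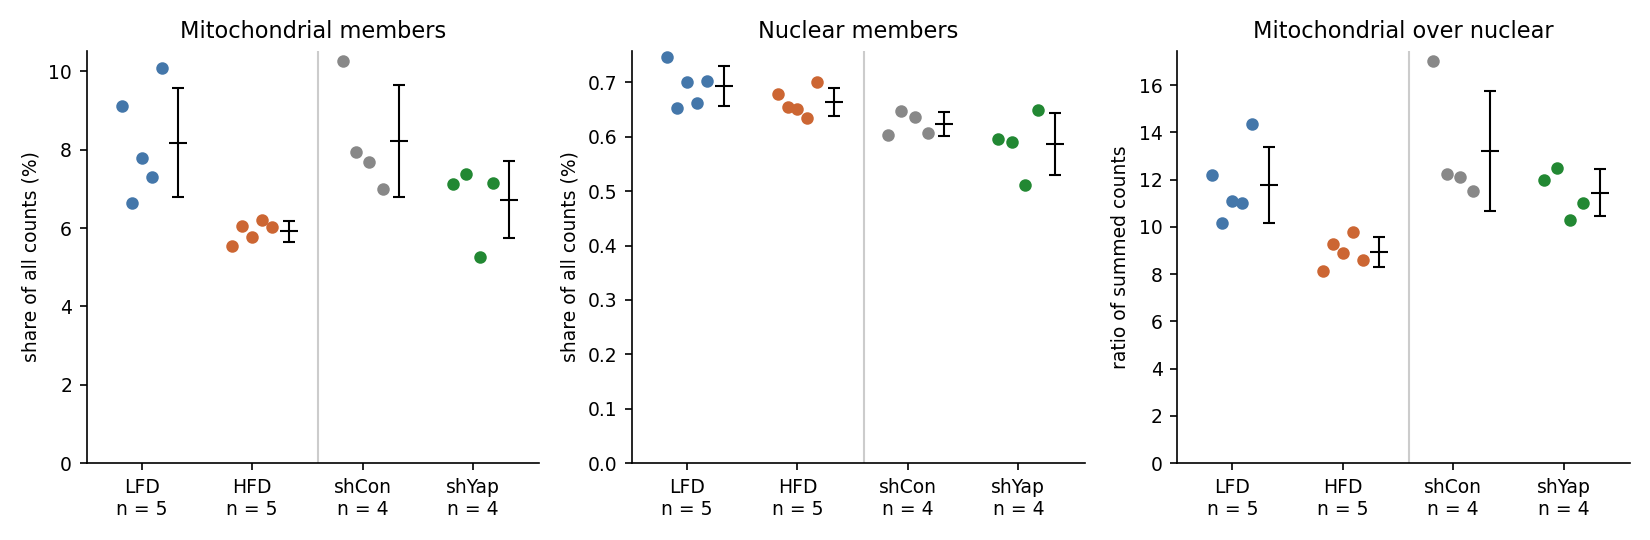
Share of all counts taken by the mitochondrial and the nuclear members (%), and the ratio of these sums, in each library of the 4 groups; bars show mean and SD, and the grey line divides the separately quantified tables. The ratio is 10.2 to 14.3 in LFD and 8.15 to 9.77 in HFD, and 17.01 in shCon replicate 1.

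The same ratio within complexes differed in how far the diets stood apart. It was 13.4 to 19.8 in LFD and 11.2 to 12.9 in HFD for complex I, 23.7 to 38.9 and 17.9 to 21.1 for complex IV, and 2.12 to 2.85 and 1.52 to 1.94 for complex V. In complex III it was 12.7 to 14.0 and 11.4 to 14.2, and the groups overlapped. Within the mitochondrial counts, mt-Nd2 took 6.49% to 8.68% in LFD and 5.59% to 6.25% in HFD, a lower share in every HFD library. mt-Co3, a core subunit of complex IV, took 5.27% to 5.92% in LFD and 6.09% to 6.55% in HFD, a higher share in every HFD library, and the shares of the other 11 members overlapped between the groups.

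**Figure D3:**
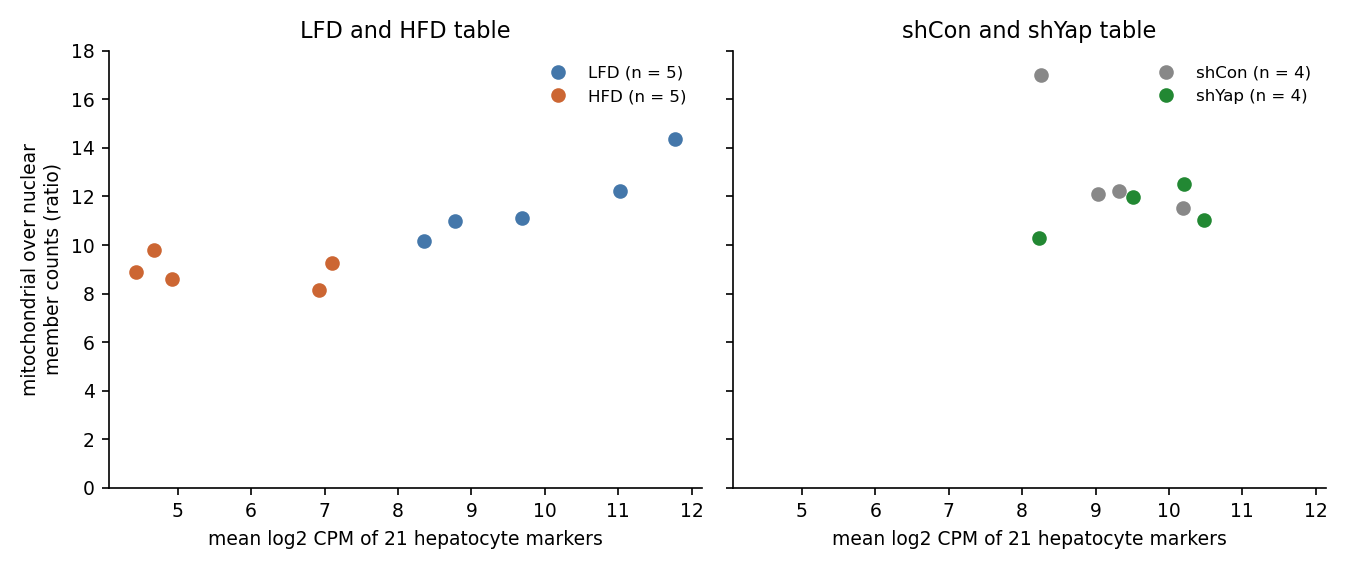
Ratio of mitochondrial to nuclear member counts against the mean log2 CPM of 21 hepatocyte markers, 1 point per library, for LFD and HFD on the left and shCon and shYap on the right. LFD libraries with more hepatocyte RNA have higher ratios, up to 14.3, the HFD libraries lie at 8.15 to 9.77, and shCon replicate 1 has the highest ratio, 17.01, at a hepatocyte mean of 8.26.

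In that plot LFD replicate 2, the LFD library with the least hepatocyte RNA (8.35), had a ratio of 10.2, and LFD replicate 5, with the most (11.8), had 14.3. Among HFD libraries, hepatocyte means of 4.43 to 4.93 went with ratios of 8.60 to 9.77 and means of 6.93 and 7.10 with ratios of 8.15 and 9.26. The lowest LFD ratio exceeded the highest HFD ratio by less than the SD of the HFD libraries.

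Complex I, the NADH dehydrogenase, had 22 of 38 nuclear members lower and 1 higher, with a median of -0.38. Of all genes tested, 21.6% were lower and 19.4% higher. Ndufv2, an iron-sulphur subunit of the NADH-oxidising arm (chr17:66078638-66101559), was at 85.3, 71.9, 74.1, 73.0 and 83.7 CPM in LFD and at 55.0, 56.2, 50.9, 57.6 and 56.1 CPM in HFD. The libraries of each diet lay close together and the groups were well apart (-0.49 ± 0.07 SE, edgeR adjusted p = 0.000847). Ndufa5, an accessory subunit, was at 26.4 to 31.8 CPM in LFD and 17.9 to 21.7 CPM in HFD (-0.55 ± 0.08), and Ndufc2, an accessory subunit of the membrane arm, at 54.3 to 75.9 and 41.2 to 50.4 CPM (-0.48 ± 0.09). These 3 genes were named for the smallest p among the nuclear members of the complex, and their groups did not overlap. Of the 38 nuclear members, 16 were lower without overlap, against 14.8% of all genes tested. Larger falls with a wider spread among the LFD libraries were those of Ndufs6, which is needed for assembly of the NADH arm (-1.01 ± 0.30, LFD 14.3 to 44.7 CPM, HFD 12.1 to 13.8 CPM), and of Ndufa6 (-0.83 ± 0.21, 46.2 to 102.0 and 36.1 to 42.0 CPM).

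The fall was not shared by all of complex I. Ndufv1, which binds NADH and FMN and works beside Ndufv2, was at 77.0 to 138.4 CPM in LFD and 100.6 to 116.9 CPM in HFD (0.18 ± 0.15, edgeR adjusted p = 0.367). It passed as higher in HFD in 4 of 22 alternative analyses, such as without LFD replicates 1 and 5 (0.48 ± 0.07, edgeR adjusted p = 0.000514). Ndufs8, a core iron-sulphur subunit, was at 49.3 to 71.1 and 53.2 to 62.0 CPM (-0.02 ± 0.10). Ndufa4 was at 137.8 to 250.1 CPM in LFD and 131.8 to 157.7 CPM in HFD (-0.32 ± 0.17, adjusted p = 0.146), with overlapping groups.

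Ndufa4l2, the hypoxia-induced paralogue of Ndufa4 (chr10:127514967-127517154), rose. It was at 2.54, 2.28, 2.94, 1.62 and 2.20 CPM in LFD and at 4.14, 4.09, 3.42, 3.42 and 4.99 CPM in HFD. Every HFD library lay above every LFD library, at a level that remained low, and the change was 0.79 ± 0.19 SE (edgeR adjusted p = 0.00799). Of its exon bases, 3.43% overlap Shmt2 on the opposite strand, whose reads cannot be told apart there without strand.

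Complex II, succinate dehydrogenase, links the chain to the tricarboxylic acid cycle. Of its 4 subunits 3 were lower, beside 21.6% of all genes tested. Sdhb, the iron-sulphur subunit, was at 110.9, 54.5, 73.2, 64.4 and 142.1 CPM in LFD and at 55.9, 53.9, 48.0, 51.5 and 56.9 CPM in HFD. LFD replicate 2 lay among the HFD libraries, and the fall of 0.74 ± 0.24 (edgeR adjusted p = 0.0305) was carried by the other LFD libraries. It did not pass in 13 of 22 alternative analyses. Sdhc and Sdhd, the membrane anchors, fell by 0.66 ± 0.18 and 0.67 ± 0.21 and did not overlap between diets, and Sdhd did not pass in 8 of the 22. The flavoprotein Sdha had the same direction (-0.58 ± 0.27) but did not pass (adjusted p = 0.114), with LFD libraries from 141.2 to 406.5 CPM and HFD libraries from 141.1 to 165.2 CPM.

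Complex III, the cytochrome bc1 complex, had 6 of 8 nuclear members lower, beside 21.6% of all genes tested, and the lowest nuclear median, -0.69. Uqcrq, a small subunit bound to cytochrome b (chr11:53427922-53430831), fell furthest of all members tested. It was at 249.1, 98.3, 142.4, 111.0 and 278.1 CPM in LFD and at 65.6, 68.7, 64.4, 58.8 and 68.8 CPM in HFD. No HFD library reached the lowest LFD library, and LFD replicates 1 and 5 were again the highest. The log2 fold change was -1.43 ± 0.28 SE (edgeR adjusted p = 0.00345), and it was -0.82 without LFD replicates 1 and 5. Uqcrb, which also binds cytochrome b, was at 59.3 to 109.0 CPM in LFD and 47.8 to 53.8 CPM in HFD (-0.70 ± 0.15), and the core subunit Uqcrc1 at 131.1 to 232.1 and 86.8 to 105.4 CPM (-0.75 ± 0.17). Uqcrfs1, the Rieske iron-sulphur protein, fell by 0.90 ± 0.26.

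Uqcrh, the hinge protein bound to cytochrome c1, stood apart from the rest of complex III. It was at 78.7, 49.0, 61.1, 49.6 and 83.1 CPM in LFD and at 61.4, 61.7, 70.2, 65.2 and 59.5 CPM in HFD (-0.02 ± 0.15, edgeR adjusted p = 0.945). Without LFD replicates 1 and 5 it was higher in HFD (0.28 ± 0.09, adjusted p = 0.0309). As a share of nuclear member counts, complex III took 9.91% to 12.0% in LFD and 8.37% to 8.63% in HFD. No library of one diet entered the range of the other.

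Complex IV, cytochrome c oxidase, had 3 of 12 tested nuclear members lower and 2 higher, with a median of -0.18. These shares, 25% and 16.7%, are near the 21.6% and 19.4% of all genes tested. The higher members include Cox7a1, which passed the filter on low counts through the HFD libraries, where it was higher. Cox5b, which binds zinc on the matrix side (chr1:36691449-36693681), was at 108.4, 70.8, 77.6, 68.4 and 93.4 CPM in LFD and at 52.4, 49.3, 50.6, 49.4 and 55.5 CPM in HFD. The groups did not overlap (-0.70 ± 0.13 SE, edgeR adjusted p = 0.00213). Cox7b was at 73.0 to 131.7 CPM in LFD and 58.9 to 65.7 CPM in HFD (-0.69 ± 0.16), and Cox5a at 66.8 to 121.1 and 56.1 to 67.0 CPM (-0.57 ± 0.15). Of the exon bases of Cox5a, 41.7% overlap Gm26631 on the opposite strand, whose reads cannot be told apart there without strand. The other common subunits did not pass: Cox4i1 was at -0.17 ± 0.12, Cox6a1 at -0.18 ± 0.13, Cox6b1 at -0.32 ± 0.18, Cox7a2 at -0.31 ± 0.16 and Cox8a at -0.04 ± 0.11. As a share of nuclear member counts complex IV took 16.3% to 18.6% in LFD and 19.8% to 20.6% in HFD, the reverse of complex III and again without overlap.

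Cox7a2l and Cox7a1 are relatives of Cox7a2. Cox7a2l, a factor that joins complexes III and IV in supercomplexes (chr17:83501918-83517330), was at 115.4, 130.0, 114.8, 100.2 and 117.3 CPM in LFD and at 143.0, 142.6, 160.4, 163.8 and 159.6 CPM in HFD. All HFD libraries were above all LFD libraries (0.41 ± 0.08 SE, edgeR adjusted p = 0.0033). Cox7a1, the isoform of heart and skeletal muscle, was at 0.549, 0.207, 0.272, 0.157 and 0.325 CPM in LFD and at 0.997, 0.606, 0.655, 1.06 and 0.831 CPM in HFD. Its counts were few, 24 over all LFD and 83 over all HFD libraries, and the change was 1.48 ± 0.33 (adjusted p = 0.00619). It passed the filter on low counts through the HFD libraries, where it was higher. Muscle markers, all below the filter on low counts, summed to 0.407 to 1.45 CPM in LFD and 0.453 to 1.03 CPM in HFD. Cox7a1 itself was at a like level, and the source of its RNA was not tested. With the hepatocyte covariate Cox7a2l (0.27, adjusted p = 0.317), Ndufa4l2 (1.02, 0.122) and Cox7a1 (2.03, 0.0867) kept a positive sign and did not pass.

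**Figure D4:**
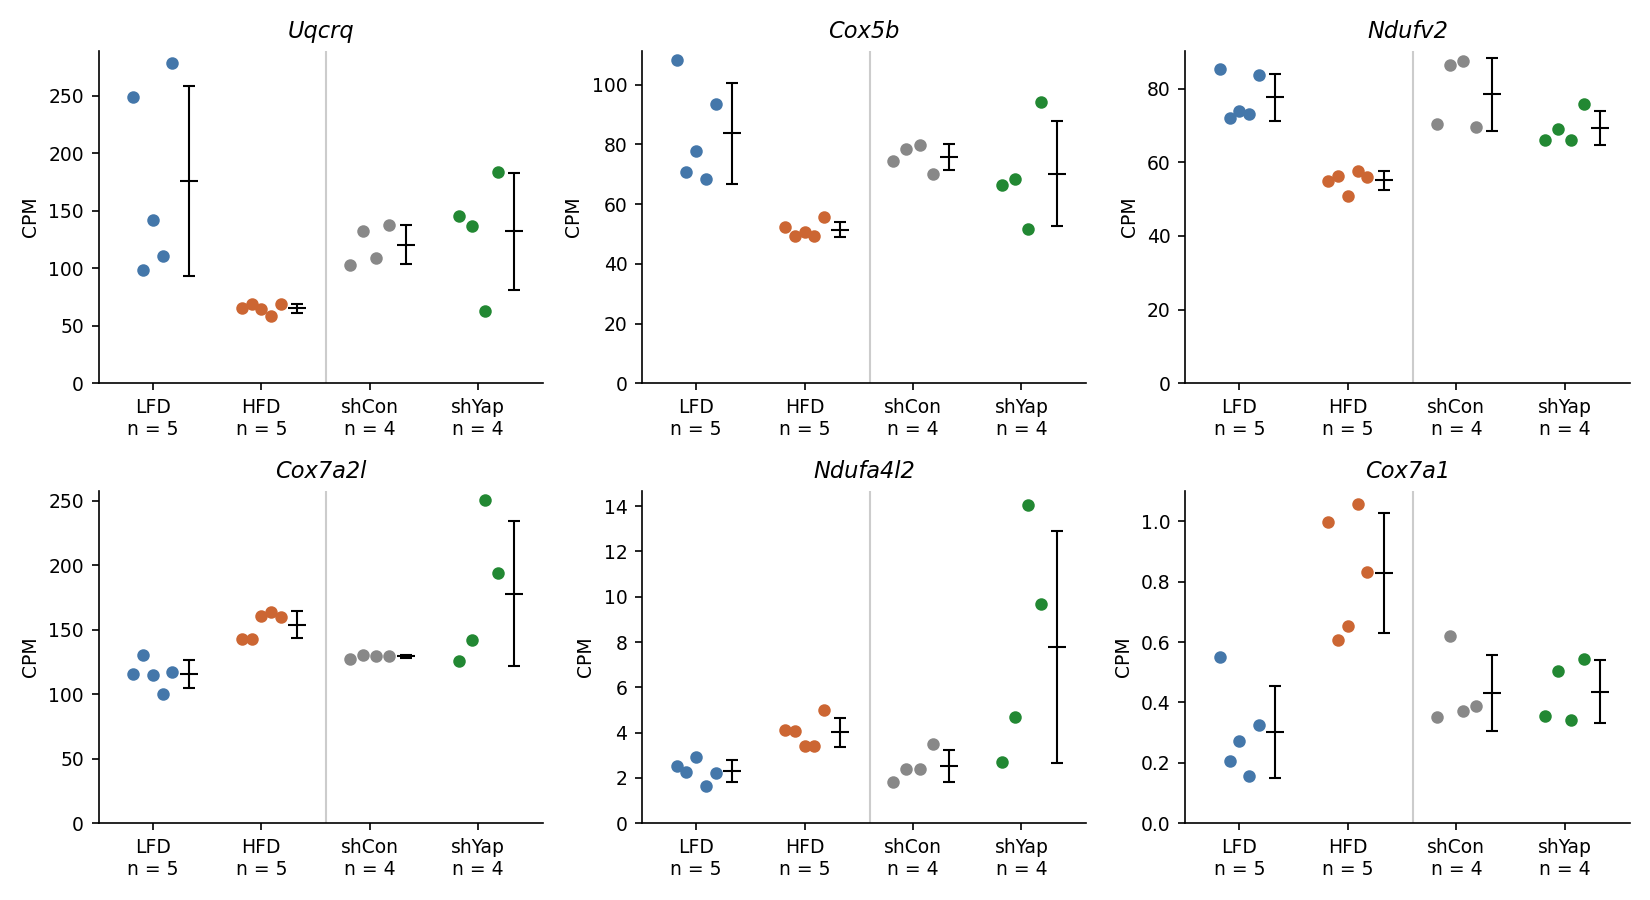
CPM of 6 nuclear members in each library of the 4 groups, with mean and SD as bars and axes from 0; the grey line divides the separately quantified tables. Uqcrq, Cox5b and Ndufv2 are lower in every HFD library than in any LFD library, and Cox7a2l, Ndufa4l2 and Cox7a1 higher. Cox7a1 has few counts and passed the filter on low counts through the HFD libraries, where it is higher.

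The restricted isoforms stayed near the detection limit. Cox4i2, the hypoxia-responsive form of Cox4i1, was at 0.407 to 0.681 CPM in LFD and 0.101 to 0.353 CPM in HFD. Cox6a2, the muscle form of Cox6a1, was at 0.0814 to 0.981 CPM in LFD and 0.152 to 0.548 CPM in HFD. Cox6b2, the testis form of Cox6b1, was at 2.23 CPM in LFD replicate 2 and at most 0.471 CPM in the other LFD libraries.

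Complex V, the ATP synthase, had 5 of 17 nuclear members lower, with a median of -0.23. That share, 29.4%, stands beside 21.6% of all genes tested. Atp5j2, the f subunit of the membrane part (chr5:145183698-145192062), was at 124.2, 89.1, 103.6, 88.0 and 110.4 CPM in LFD and at 64.2, 66.3, 58.2, 62.4 and 69.2 CPM in HFD. The groups did not overlap (-0.69 ± 0.10 SE, edgeR adjusted p = 0.000974). Atp5b, the catalytic beta subunit, was at 772.2 to 1150 CPM in LFD and 611.0 to 702.9 CPM in HFD (-0.45 ± 0.12), and Atp5pb, the b subunit of the stator, at 152.7 to 240.2 and 136.9 to 148.7 CPM (-0.41 ± 0.11). Of the exon bases of Atp5pb, 21% overlap Wdr77 on the opposite strand. The alpha subunit Atp5a1, which alternates with Atp5b in the catalytic ring, was at 537.2 to 950.3 CPM in LFD and 554.0 to 627.9 CPM in HFD (-0.15 ± 0.16, adjusted p = 0.485). The genes of subunit c, which encode the same mature protein, were at -0.22 ± 0.13 (Atp5g1), 0.23 ± 0.14 (Atp5g2) and -0.50 ± 0.18 (Atp5g3, adjusted p = 0.0501).

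**Figure D5:**
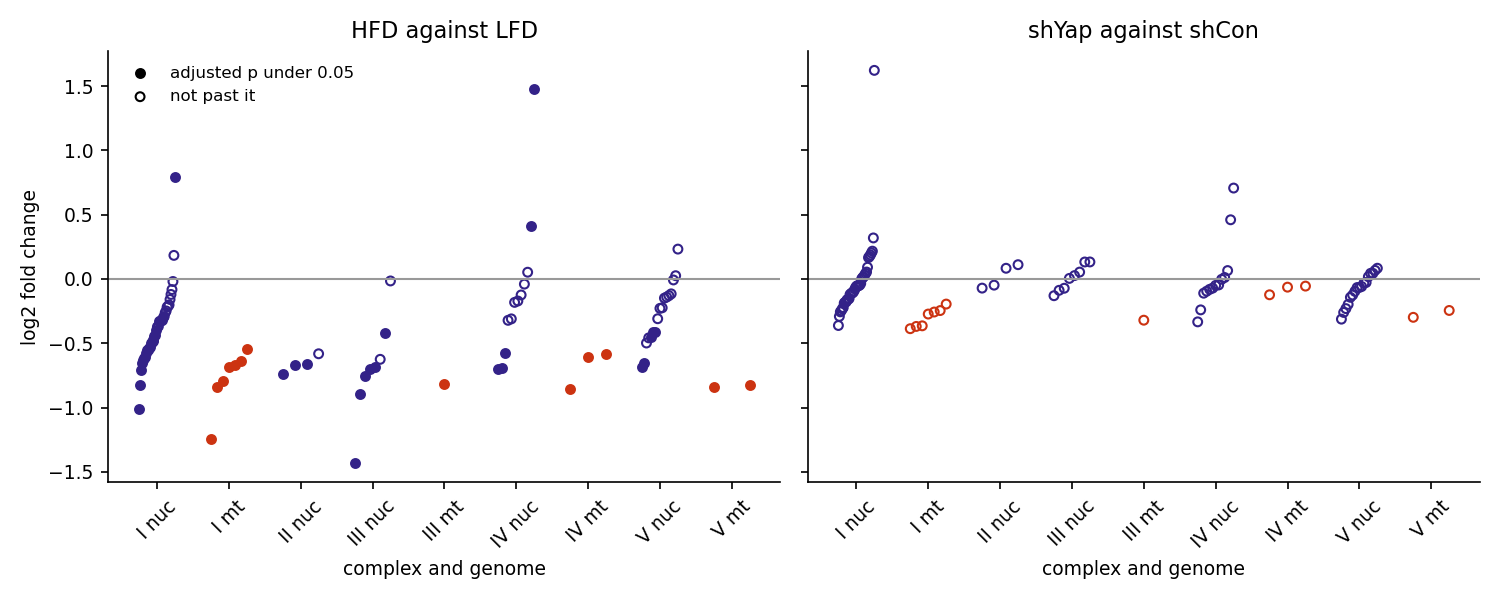
Log2 fold change of each tested member by complex and genome (nuc, nuclear; mt, mitochondrial), for HFD against LFD on the left and the libraries labelled shYap against shCon on the right; filled points have an adjusted p under 0.05 in edgeR. On the left all 13 mitochondrial points are filled and below 0, the nuclear points of complex III have the lowest median (-0.69) and those of complex IV the highest (-0.18), and on the right 0 points are filled.

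The counts of lower members depended on single libraries and on scaling. The share of all genes called in each of these fits is not given here, so the counts describe the members alone. Without HFD replicate 1, HFD replicate 3, HFD replicate 5 or LFD replicate 1, 8 of the 13 mitochondrial members were lower. LFD replicates 1 and 5, which held the most hepatocyte RNA, had TMM factors of 0.821 and 0.684, against 1.01 to 1.11 in the other libraries of the table. Without both, 11 mitochondrial and 27 nuclear members were lower and 7 nuclear members higher, with medians of -0.35 and -0.13. Unscaled totals moved the median of all genes to 0.24, and 7 mitochondrial and 17 nuclear members were then lower and 6 nuclear members higher. Relative to the median of all genes, the medians were -0.69 and -0.35 in that fit. HFD replicates 1 and 2 and HFD replicates 3 and 4 were closer to each other than other pairs. With each of these pairs summed to 1 library, the members that remained lower were mt-Nd2, Uqcrq, Uqcrb, Uqcrc1, Uqcr10, Cox5b, Cox7b, Atp5j2, Ndufa5, Ndufv2 and Ndufc2, and the 3 higher members still passed.

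The second comparison asks what changed in tumours labelled shYap against shCon, both on the high-fat diet. No member passed edgeR's test, of 93 tested, and 0% of all 16571 genes passed (smallest adjusted p = 0.149). At an unadjusted p under 0.05 were 2 members, Ndufa4l2 and Cox7a2l, beside 10.9% of all genes tested. DESeq2 called 2.2% of the genes it tested and 1 member, Ndufa4l2. Cox6b2 and Cox7a1 were below the filter and were not tested. The median log2 fold change was -0.26 for mitochondrial and -0.05 for nuclear members, against 0.03 for all genes.

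Ndufa4l2 was at 1.80, 2.38, 2.41 and 3.49 CPM in shCon whereas the shYap libraries had 2.69, 4.70, 14.1 and 9.68 CPM. Replicates 3 and 4 of shYap were high and replicate 1 lay within the shCon range. The log2 fold change was 1.62 ± 0.48 SE (edgeR adjusted p = 0.269, DESeq2 adjusted p = 0.0321), and it was 1.19 ± 0.42 without shYap replicate 3. Cox7a2l was at 127.5, 130.3, 129.7 and 129.6 CPM in shCon and at 125.5, 142.1, 250.3 and 193.6 CPM in shYap. The shCon libraries were nearly equal, replicates 3 and 4 of shYap were again the high ones, and the change was 0.46 ± 0.20 (edgeR adjusted p = 0.457). In HFD against LFD, a comparison of other libraries, both genes rose.

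All 13 mitochondrial members had a negative fold change, from -0.39 ± 0.21 (mt-Nd5) to -0.06 ± 0.17 (mt-Co1 and mt-Co3). None passed, and the median was -0.07 without shYap replicate 3 and -0.13 without shCon replicate 1. The mitochondrial members took 10.3%, 7.93%, 7.69% and 6.99% of the shCon libraries and 7.13%, 7.38%, 5.25% and 7.14% of the shYap libraries. shCon replicate 1 was high and shYap replicate 3 low, and the other 6 libraries lay between 6.99% and 7.93%. The mitochondrial to nuclear ratio was 17.01, 12.2, 12.1 and 11.5 in shCon and 12.0, 12.5, 10.3 and 11.02 in shYap. Apart from shCon replicate 1, the groups overlapped.

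The library labelled shYap replicate 3 differed in the makeup of its mitochondrial RNA as well as in its amount. There mt-Co1 took 40.8% of mitochondrial member counts, against 26.5% to 31.4% in the other 7 libraries, and mt-Nd2 took 3.82%, against 6.61% to 8.10%. In CPM, mt-Co1 in that library (20896) was within the range of the others, whereas mt-Nd2 (1959), mt-Nd1 (3023), mt-Nd4 (4453), mt-Cytb (5236) and mt-Nd3 (112.3) were the lowest of all 8 libraries. Nuclear subunits low in the same library were Uqcrq (62.5 CPM, against 103.3 to 183.5 in the others), Ndufa4 (52.9, against 80.3 to 105.1), Cox5a (34.1, against 55.9 to 69.1) and Ndufs6 (9.93, against 17.3 to 28.6). Its hepatocyte mean (8.23) was the lowest of the table, beside 8.26 in shCon replicate 1, and its total of 17207187 counts was the smallest. The part of these in the result was not tested.

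By complex, the nuclear medians for shYap against shCon lay between -0.07 (complex V) and 0.02 (complexes II and III), and the range of the summed nuclear CPM overlapped between groups in each complex. Uqcrq, the member that fell furthest in HFD, was at 103.3, 132.0, 109.1 and 137.7 CPM in shCon and at 145.2, 137.0, 62.5 and 183.5 CPM in shYap (0.13 ± 0.28, edgeR adjusted p = 0.916). Cox7b was the only member whose groups did not overlap, at 79.4 to 104.5 CPM in shCon and 49.7 to 78.8 CPM in shYap (-0.33 ± 0.17, adjusted p = 0.537), where 3.96% of all genes were lower and 2.61% higher without overlap. T cell markers were at 40.2 to 96.8 CPM in shCon and 19.6 to 31.0 CPM in shYap, and hepatocyte markers overlapped.

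Per length of transcript, levels can be set beside each other. Each mitochondrial member exceeded every nuclear member with a length (81 of 82) in all 10 libraries of the first table and all 8 of the other. The median over members was 7175 CPM per kb for mitochondrial and 77.3 for nuclear members in LFD, 4329 and 61.0 in HFD, 5792 and 64.6 in shCon, and 4765 and 63.3 in shYap. mt-Co1 led in each group, at 19541 ± 8347 CPM per kb in LFD (SD, n = 5), 10780 ± 632 in HFD (SD, n = 5), 14961 ± 2112 in shCon (SD, n = 4) and 14397 ± 1213 in shYap (SD, n = 4). Lowest among mitochondrial members were mt-Nd3 in LFD and HFD (1161 ± 375 and 722.9 ± 69.7 CPM per kb) and mt-Nd4l in shCon and shYap (781.8 ± 154 and 654.1 ± 167). mt-Nd4l and mt-Nd3 did not differ beyond their SD in any group.

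Among nuclear members per kb, Atp5b (468.6 ± 82.0), Ndufa4 (397.0 ± 111) and Cox6a1 (392.6 ± 83.1) were highest in LFD, and Cox6a1 (346.1 ± 22.7), Atp5b (343.3 ± 23.3) and Cox8a (328.6 ± 18.2) in HFD. In shCon Cox8a (410.5 ± 12.9), Cox6a1 (347.1 ± 26.1) and Atp5b (300.4 ± 30.8) led, and in shYap the same 3 led at 390.8 ± 108, 349.9 ± 101 and 309.7 ± 42.3. Neighbours in these orders differed by less than their SD, except Cox8a and Cox6a1 and then Atp5b in shCon. Under 4 CPM per kb in all 4 groups were Cox7a1, Cox4i2, Cox6a2 and Cox6b2. Uqcrq was the fourth nuclear member in LFD at 348.8 ± 164 CPM per kb.

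The overlapping mitochondrial pairs differed between the tables. Counts of mt-Nd6, on the other strand, were 0.193 to 0.244 times those of mt-Nd5 in the first table and 0.302 to 0.531 times in the other. Counts of mt-Atp8 were 0.0708 to 0.0999 times those of mt-Atp6 in the first table and 0.0951 to 0.185 times in the other. The tables were quantified separately, and within each table the groups overlapped in both ratios.

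The counts of the 6 pathway lists that follow stand beside 21.6% of all genes lower and 19.4% higher in HFD. Of 44 assembly factors of the chain, 8 fell and 3 rose in HFD (median -0.19), shares below those of all genes. Tmem126b, a factor for the membrane arm of complex I, fell by 0.77 ± 0.11, and Ndufaf6, another complex I factor, by 0.88 ± 0.13 (edgeR adjusted p = 0.000691 and 0.000764). Of 18 electron carriers and enzymes that feed electrons in, 7 fell and 1 rose (median -0.31). Cyc1, the cytochrome c1 of complex III, fell by 0.50 ± 0.17, a call lost in 11 of 22 alternative analyses. Ndufab1, the acyl carrier protein of complex I, was at -0.25 ± 0.10 and did not pass, as was cytochrome c (Cycs, -0.33 ± 0.13). Coq8a, needed for ubiquinone synthesis, fell by 3.17 ± 0.63, from 114.4 ± 111.9 CPM in LFD (SD, n = 5) to 12.7 ± 2.16 in HFD (SD, n = 5). Gpd2, the glycerol-3-phosphate dehydrogenase of the inner membrane, was at 77.2 ± 9.96 CPM in LFD (SD, n = 5) and 118.5 ± 7.23 in HFD (SD, n = 5), a rise of 0.62 ± 0.10.

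Of 24 genes for maintenance and transcription of mitochondrial DNA, 2 fell and 2 rose in HFD (median -0.05), which is also below the shares of all genes, and the genes named here are single genes of that list. Polrmt, the RNA polymerase that transcribes the 13 members, was at 26.8 ± 2.77 CPM in LFD (SD, n = 5) and 33.3 ± 2.13 in HFD (SD, n = 5), a rise of 0.32 ± 0.09 (edgeR adjusted p = 0.0147). Tefm, its elongation factor, fell by 0.68 ± 0.21 (a call lost in 10 of 22), and Tfam, which packages the DNA and starts transcription, was at -0.18 ± 0.10 and did not pass. Of 16 tested regulators of mitochondrial biogenesis, 7 fell and 1 rose. Ppargc1a, the co-activator PGC-1 alpha, fell by 3.50 ± 0.47 from 4.99 ± 2.99 to 0.430 ± 0.233 CPM (SD, n = 5 each), and Sirt3, the mitochondrial deacetylase, by 2.14 ± 0.44. Nrf1 (0.18 ± 0.12), Gabpa (-0.04 ± 0.10) and Yy1 (0.17 ± 0.10), whose motifs were counted above, did not pass.

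Of 21 genes listed for the tricarboxylic acid cycle and its entry, 12 fell and 2 rose (median -0.30). The list also holds cytosolic enzymes (Idh1, Aco1 and Mdh1), so these are not counts of cycle genes alone. Idh1, a cytosolic isocitrate dehydrogenase, was at -2.41 ± 0.45 and Suclg2, a subunit of succinyl-CoA ligase, at -1.36 ± 0.24. Of 10 tested carriers, channels and uncoupling proteins, 3 fell and 2 rose, close to the shares of all genes. The phosphate carrier Slc25a3 rose by 0.45 ± 0.09 and the ADP/ATP carrier Slc25a5 fell by 0.67 ± 0.13, although both serve complex V. In shYap against shCon, 0 genes of these 6 lists passed in edgeR. The smallest p in the transcription list was that of Ssbp1, the single-strand binding protein of mitochondrial DNA (-0.50 ± 0.16, adjusted p = 0.301), and Vdac1, the channel of the outer membrane, was at 0.44 ± 0.14 (adjusted p = 0.293).

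Some members have near-identical copies between which the counting could have divided reads. Among the 11 rows left out, Ndufb4c reached 49.3 CPM, Atp5pb-ps 34.1, Cox6c2 17.8, Ndufs5-ps 16.0 and Ndufs6b 3.26 CPM in the first table. Ndufb4 itself was at 5.33 to 12.3 CPM there. The levels of Ndufb4, Atp5pb, Cox6c, Ndufs5 and Ndufs6 are therefore uncertain.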

How the data were processed

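RNA sequencing of tumour tissue gave 18 libraries in 2 separately quantified tables. Per the labels, the authors deposited estimated counts for each gene, made with the Partek expectation-maximisation model. STAR 2.7.3a, Partek and DESeq2, and the builds GRCm38 and mm10, are named without a role or order in the submitters' processing notes. Totals per library were 17207187 to 21309901.

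Estimated counts were rounded to whole numbers. Genes were filtered with filterByExpr, scaled with TMM factors and tested with edgeR 4.0.16 (R 4.3.3, robust quasi-likelihood F test, Benjamini-Hochberg over all genes tested, threshold 0.05), within each table. Standard errors were taken from the F statistic, as the size of the change over its root. Levels per kb used the median protein-coding transcript length of GENCODE M21. Alternatives were DESeq2 1.42.0, limma 3.58.1 voom, other scalings and filters, a hepatocyte covariate, a replicate block, summed pairs of close libraries and left-out libraries. Unscaled totals and the removal of LFD replicates 1 and 5 were chosen after seeing the data.

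The members and gene lists were chosen with earlier results of these data known. Genes named were all mitochondrial members, the 3 smallest p of each complex, isoforms with their counterparts, the largest rise and fall, the 2 smallest p of each pathway list, and Yap1. Others named with values (such as Ndufs6, Ndufs8, Ndufv1, Ndufa6, Uqcrfs1, Atp5a1, Cox5a, Cyc1, Tfam and Nrf1) were chosen after their values were seen.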

Additional observations from a re-analysis of the deposited data

Results flagged for a closer look

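Of 268 sets of values of 1 group tested for a library far from the others, 13 gave one. That share is near the 1 in 20 that chance gives, so the number of flags is not a result by itself. The library labelled shYap replicate 3 accounted for most of them, with the mitochondrial members at 5.25% of counts (7.13% to 7.38% in the other shYap libraries) and the nuclear members of complex II at 277.7 CPM (369.5 to 382.9). In the same library mt-Nd2 was at 1959 CPM (5309 to 5985 in the others), Ndufa4 at 52.9 (97.7 to 104.1) and Uqcrb at 49.9 (61.1 to 63.4). Cox7b was at 49.7 CPM there (75.7 to 78.8), Cox5a at 34.1 (63.8 to 69.1) and Ndufb4 at 7.77 (12.1 to 12.2).

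In shCon replicate 1 the mitochondrial to nuclear ratio was 17.01, against 11.5 to 12.2 in the other shCon libraries, and Ndufa13, whose exons overlap Tssk6 on the opposite strand, was at 48.7 CPM, against 64.3 to 66.8. Uqcrfs1 was at 77.7 CPM in shCon replicate 4 (55.1 to 56.2 in the others), and Cox7a1 at 0.620 CPM in shCon replicate 2 (0.351 to 0.387). Cox6b2 was at 2.23 CPM in LFD replicate 2 (0.206 to 0.471 in the other LFD libraries).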

How the results depend on the processing

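With the hepatocyte covariate, 0 nuclear and 0 mitochondrial members were lower in HFD and 1 nuclear member was higher, with medians of 0.24 and 0.10. Among named genes that passed without the covariate, signs turned there for mt-Atp6 (0.0177), mt-Atp8 (0.11), mt-Co1 (0.21), mt-Co2 (0.0948), mt-Co3 (0.28), mt-Nd1 (0.20), mt-Nd3 (0.0862), mt-Nd4 (0.15), mt-Nd4l (0.25), mt-Nd5 (0.10), Sdhb (0.40), Sdhc (0.17), Sdhd (0.28), Cox5a (0.12), Cox7b (0.0123), Atp5b (0.00316), Atp5pb (0.0463), Ndufa6 (0.074), Ndufb9 (0.20), Ndufs6 (0.41), Uqcrfs1 (0.36), Cyc1 (0.25), Coq8a (0.0643), Sirt3 (0.16) and Ppargc1b (0.0931), none past the threshold. Others kept a negative sign and did not pass, such as Uqcrq (-0.08), mt-Nd2 (-0.06), Ndufa5 (-0.45) and Ppargc1a (-1.95). With close HFD libraries summed, 10 nuclear and 1 mitochondrial members were lower. With unscaled totals, 17 nuclear and 7 mitochondrial members were lower and 6 nuclear members higher, and the nuclear median was -0.11. Without LFD replicates 1 and 5, 7 nuclear members were higher, the medians were -0.13 and -0.35, and Uqcrh turned to 0.28 (edgeR adjusted p = 0.0309). Leaving out 1 library gave 26 to 50 nuclear and 8 to 13 mitochondrial members lower, and medians of -0.45 to -0.30 and -0.93 to -0.53. Without TMM factors the summed CPM in HFD were 59182 for mitochondrial and 6636 for nuclear members. The cause of these shifts was not tested, and the share of all genes called in each of these fits is not given here. For shYap against shCon DESeq2 called 1 nuclear member higher, and leaving out 1 library gave medians of -0.14 to 0.06 (nuclear) and -0.35 to -0.07 (mitochondrial).

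Same-numbered libraries did not deviate together: the correlations were 0.315, -0.5, 0.104, 0.304 and -0.272 for LFD and HFD and 0.00572, -0.052, 0.182 and 0.178 for shCon and shYap. With the replicate block, 32 nuclear and 5 mitochondrial members were lower in HFD, and 0 members passed in shYap against shCon. For the block, too, the share of all genes called is not given. Depth limits the isoforms at few counts, such as Cox7a1.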
